A study of Rattus norvegicus with 102 samples.

Results

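The dentate gyrus (DG) of aged Fisher 344 rats was compared between 12 aged impaired (AI) rats, which had performed poorly in a spatial water maze, and 12 aged unimpaired (AU) rats, which had performed well. These 24 libraries were all the DG libraries of aged rats among the 102 libraries of each table, which held CA1, CA3 and DG of 34 rats. All animals were male, the aged rats were 17 to 22 months old, and 10 young rats of 5 to 6 months gave further DG libraries that are used here as a reference level. The labels name no treatment and no genetic change. The maze class was a cut on a continuous behavioral score that was not used here, and each library came from 1 dissected piece of tissue that held every cell type present.

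The DG is the first station of the hippocampal circuit. Its granule cells receive cortical input through the perforant path and send mossy fibers to CA3 pyramidal cells, and new granule cells are still born in the adult. The region is known for separating similar patterns of input, a process that tends to decline with age. Granule cells fire sparsely, since strong inhibition and potassium currents hold them near rest, and glia, vessels and ependymal cells lie beside them in a dissected piece.

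Poly-A RNA of each piece was read by 2 methods, Illumina and Ion Proton, and a further table named WT by the submitters was used as another check. Values below are normalized counts, which are reads per gene divided by a size factor per library, and they come from the Illumina table unless another is named. The aged DG libraries held 5.31 to 41.5 M reads assigned to genes in the Illumina table, with a median of 11.1 M, 4.47 to 13.7 M in the Ion Proton table and 3.94 to 16.04 M in the WT table. Median depth was 11.9 M in AI and 10.5 M in AU. A count of 3 reads, taken as the detection floor, corresponded to 0.960 to 7.31 normalized counts, which covers counting error only.

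Labels of subfield were checked against marker genes of granule cells, such as Prox1, C1ql2 and Dsp, and of CA1 and CA3 pyramidal cells. The summed level of 13 granule cell markers ranged from 2381 to 10027 in AI (median 8101), from 4820 to 11904 in AU (median 8706), and had a median of 5088 in aged CA1 and 2653 in aged CA3. In 3 of the 24 DG libraries, by both poly-A tables, the marker profile was closer to that of CA1 or CA3. The DG library of AI rat R9781 lay nearest to CA3 in all 3 tables, and the library labeled CA3 of this rat lay nearest to DG. The DG library of AU rat R9865 lay nearest to CA1 and that rat's CA3 library nearest to DG. The DG library of AU rat R9869 lay nearest to CA1 in both poly-A tables but to DG in the WT table, and its CA1 library lay nearest to DG. Labels were kept as given, and values without these 3 libraries are given for the retested genes and beside many of the gene lists.

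**Figure D1:**
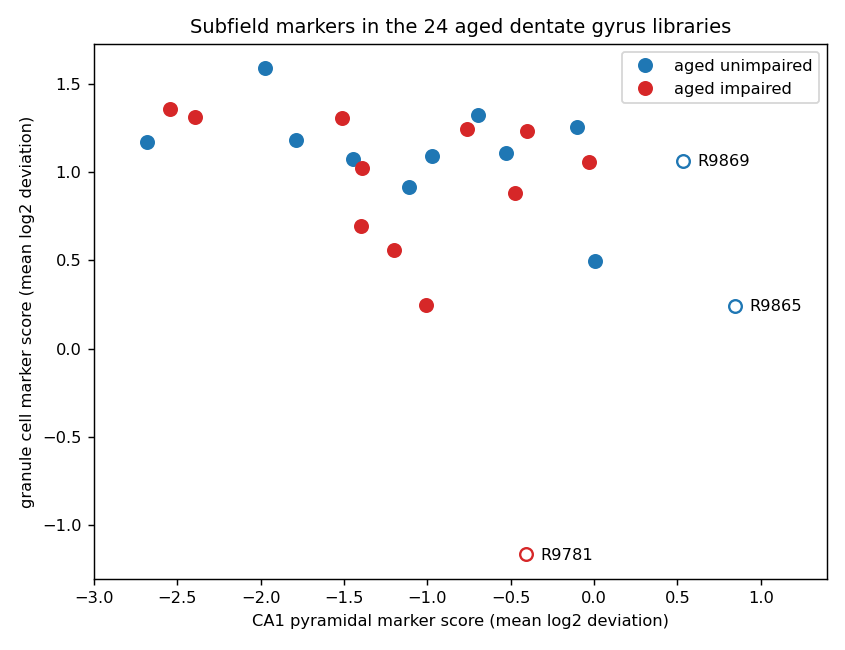
Granule cell marker score (y axis) against CA1 marker score (x axis) of the 24 aged DG libraries in the Illumina table, both in log2 units relative to the mean of all libraries, by group. The 3 libraries nearer to another subfield are those of AI rat R9781, with a granule cell score of -1.17, and AU rats R9865 and R9869, with CA1 scores of 0.85 and 0.53. The granule cell scores of R9865 and R9869 were 0.24 and 1.06. Among the libraries nearest to DG, AI rat R9872 had 0.25 and AU rat R9867 had 1.07, so this score alone does not set R9865 or R9869 apart.

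The first question was whether any transcript of the DG separated the maze groups once all genes were considered. With limma on log2(value + 1), 0 of 14011 genes with a mean of at least 10 passed a Benjamini-Hochberg adjusted p of 0.05 in the Illumina table, where the smallest adjusted p was 0.999, and 0 passed in the Ion Proton and WT tables, with smallest adjusted p of 1.00 and 0.609. Without adjustment 539 genes (3.85%) had p under 0.05 in the Illumina table, of which 249 (1.78%) were higher and 290 (2.07%) lower in AI. The Ion Proton gave 247 of 15046 genes (1.64%) and WT 959 of 13530 (7.09%) at that level. edgeR and DESeq2 on the recovered reads also called 0 genes after adjustment. The single genes described next rest on p-values without adjustment.

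Genes with an unadjusted p under 0.01 in the Illumina table were tested again in the Ion Proton table. There were 70 such genes (0.5% of those tested), 42 higher (0.3%) and 28 lower (0.2%) in AI. Of the 69 that could be tested, 17 (24.6%) had a one-sided p under 0.05 in the same direction on the Ion Proton, against 540 (3.94%) of all 13713 genes tested in both. These 17 genes make up 0.124% of that total, 11 were higher and 6 lower in AI, and 9 also passed a one-sided p of 0.05 in the WT table (52.9%, against 12.8% of all 13336 genes). The 9 were Ptprv, Bcl6, Myom2, Gjd2, Rapgef5, Kcnq5, Arhgdig, Mccc2 and Kank4. All 3 tables were made from the same rats, so the repeats bear on measurement error and not on differences between animals. Kank4 (one-sided Ion Proton p = 0.0387, limma) and Myom2 (0.0355) lay just inside the retest, and Bcap31 (0.0522) and RT1-M4 (0.0529) just outside.

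Ptprv, on chromosome 13, encodes a receptor-type protein tyrosine phosphatase and differed most among the retested genes. Its normalized count ranged from 63.4 to 151 in AI (median 118), from 34.7 to 98.1 in AU (median 57.5) and from 30.3 to 98.5 in young rats (median 83.2). All 12 AI libraries lay above the AU median and 8 lay above every AU library, so the groups overlapped in the remaining 4. The level was 1.77-fold higher in AI (log2 change 0.82, SE 0.19, limma p = 0.00022, n = 12 and 12). On the Ion Proton it ranged from 24.4 to 140 in AI and from 20.7 to 83.0 in AU, with medians of 83.4 and 49.0 and a log2 change of 0.63 (one-sided limma p = 0.00717). In the WT table the medians were 54.9 and 24.3. Without the 3 libraries nearer to another subfield the log2 change was 0.66 (limma p = 0.00187).

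Genes for ion flow and for coupling between cells were among those higher in AI. Kcnq5 encodes a subunit of the slow potassium current known as the M current, which limits repetitive firing, and it had 990 to 2063 normalized counts in AI (median 1502) and 909 to 1616 in AU (median 1226). The young median of 1493 was close to that of AI. Of the AI libraries, 11 of 12 lay above the AU median, and the log2 change was 0.36 (SE 0.11, limma p = 0.0037), 0.40 on the Ion Proton and 0.33 in WT. Gjd2 encodes the main connexin of electrical synapses between neurons and had 150 to 321 counts in AI (median 201), 75.2 to 241 in AU (median 152) and a young median of 170. Its log2 change was 0.51 (SE 0.15, limma p = 0.00247), and on the Ion Proton, where all 12 AI libraries lay above the AU median, it was 0.64 (one-sided limma p = 0.000622). Without the 3 libraries the values were 0.25 for Kcnq5 (limma p = 0.0314) and 0.38 for Gjd2 (limma p = 0.0146), both past p of 0.05 but no longer past 0.01.

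**Figure D2:**
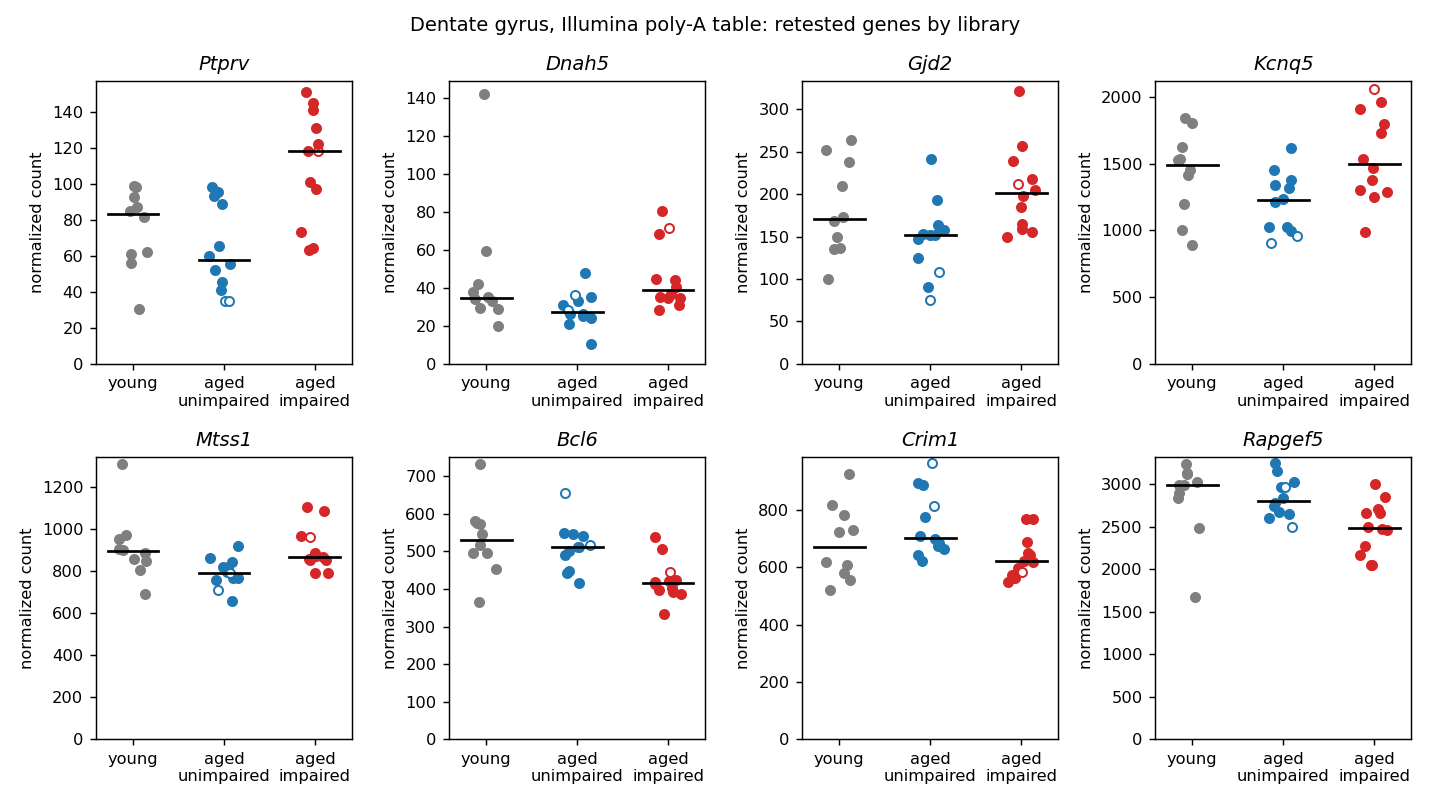
Normalized counts in the Illumina table (y axis) of 8 retested genes in DG of young, AU and AI rats; each point is 1 library, each line is the group median, and hollow points are the 3 libraries nearer to another subfield. For Ptprv all 12 AI points lie above the AU median of 57.5, while for Rapgef5 10 of 12 AI points lie below the AU median.

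Other members of the potassium channel and connexin families went in both directions. Of 40 potassium channel genes tested, 13 were higher and 6 had p under 0.05 (background 3.85%). Kcnq5 was the higher one, and Kcnh7, Kcnj4, Kcnk1, Kcnd2 and Kcnh3, which were named after their values were seen, were lower, with log2 changes from -0.42 to -0.18. Without the 3 libraries 21 of 40 were higher and 1 had p under 0.05 (background 2.95%), and that was Kcnq5. Of 9 connexin genes, 4 were higher and Gjd2 was the single one past p of 0.05, while 7 of 9 were higher on the Ion Proton, in WT and, in the Illumina table, without the 3 libraries. Gja1, the main connexin of astrocytes, had a log2 change of -0.03 (limma p = 0.737).

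Dnah5, a heavy chain of the dynein that moves cilia, ranged from 28.4 to 80.4 in AI (median 38.6) and from 10.5 to 47.9 in AU (median 27.2). All 12 AI libraries lay above the AU median and 3 lay above every AU library (log2 change 0.65, SE 0.19, limma p = 0.00259), with 0.63 when the 3 libraries were left out (limma p = 0.00558). The change was 0.54 on the Ion Proton (one-sided limma p = 0.0175) but 0.25 in WT (one-sided limma p = 0.202), where Dnah5 did not pass. One young library reached 142, above all aged ones. A second Ensembl entry with the same symbol had a log2 change of 0.68 (limma p = 0.0255). Ependymal markers, which also carry motile cilia, are given with the cell type lists below.

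Myom2, which encodes a myomesin that cross-links myosin filaments in muscle, ranged from 112 to 155 in AI (median 135) and from 59.3 to 136 in AU (median 109). All 12 AI libraries lay above the AU median, with a log2 change of 0.38 (SE 0.10, limma p = 0.00097) that was 0.44 in WT and 0.28 without the 3 libraries. Kank4, an adaptor of the actin cortex, had medians of 261 and 211 (log2 change 0.38, SE 0.13, limma p = 0.00831). Mtss1, which binds actin and bends membranes, had 790 to 1104 counts in AI and 656 to 920 in AU (log2 change 0.19, SE 0.06, limma p = 0.00252), and the young median of 894 was again nearer to AI. Arhgdig had medians of 572 and 504 (log2 change 0.25, limma p = 0.00664). Without the 3 libraries the log2 changes were 0.23 for Kank4, 0.17 for Mtss1 and 0.16 for Arhgdig (limma p = 0.0379, 0.0123 and 0.0362), and these 3 genes no longer passed 0.01. Myom2 kept p under 0.01 but was not retested in that set of libraries.

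The remaining higher genes differed by little. Snx10, an endosomal sorting nexin, had medians of 1749 in AI and 1531 in AU (log2 change 0.18). Mpp6, a membrane scaffold, had 747 and 686 (0.14), and Cndp2, a cytosolic dipeptidase, had 1301 and 1216 (0.11). In WT the log2 changes of Snx10 and Mpp6 were -0.02 and -0.00, so these differences were not seen in that table. Leaving out the 3 libraries gave log2 changes of 0.12 for Snx10, 0.15 for Mpp6 and 0.08 for Cndp2 (limma p = 0.0351, 0.00521 and 0.0388).

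Among the 6 lower genes, Bcl6 had the smallest p. It encodes a transcriptional repressor that favors neuronal differentiation, and it ranged from 333 to 539 in AI (median 415), from 416 to 655 in AU (median 512) and from 367 to 732 in young rats (median 532). Of the AI libraries, 11 of 12 lay below the AU median and 6 lay below every AU library (log2 change -0.27, SE 0.07, limma p = 0.000622). The change was -0.23 on the Ion Proton, -0.17 in WT and -0.24 without the 3 libraries. Rapgef5, an exchange factor that activates Rap GTPases, ranged from 2047 to 3001 in AI and from 2493 to 3247 in AU, with medians of 2484, 2810 and, in young rats, 2992. Here 7 AI libraries lay below every AU library (log2 change -0.20, SE 0.06, limma p = 0.00262), and the change was -0.19 without the 3 libraries (limma p = 0.0045).

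Crim1, a membrane protein that binds bone morphogenetic proteins, had medians of 621 in AI and 703 in AU (log2 change -0.24, SE 0.07, limma p = 0.00316), and Mfsd4, of the major facilitator family of transporters, had 462 and 552. All 12 AI libraries lay below the AU median of Mfsd4 (log2 change -0.24, limma p = 0.00688). In WT the log2 changes were close to 0, at -0.02 for Crim1 and 0.01 for Mfsd4, and without the 3 libraries they were -0.18 and -0.19 (limma p = 0.0214 and 0.0322). Mccc2, a subunit of the carboxylase that breaks down leucine in mitochondria, had medians of 415 and 457 (log2 change -0.16), and LOC100911302, a gene model without a name, had 395 and 460 (-0.17). Leaving out the 3 libraries gave -0.17 and -0.14 (limma p = 0.00507 and 0.0462).

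**Figure D3:**
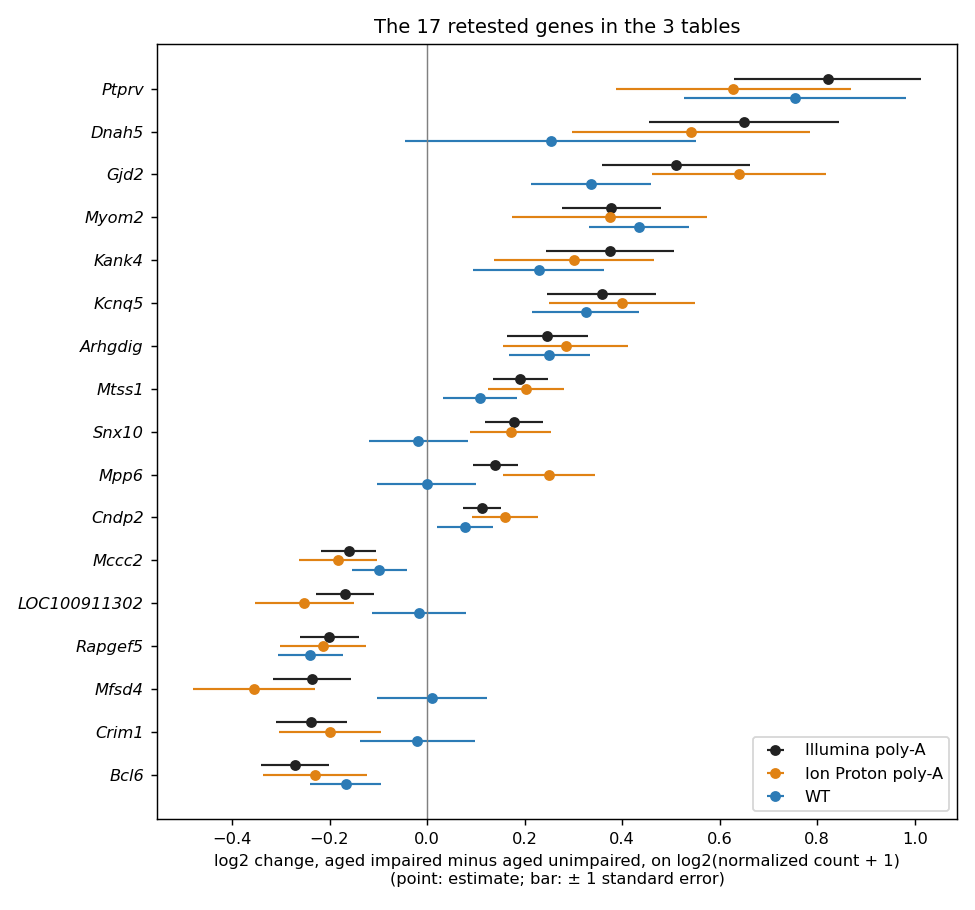
Log2 change of AI against AU (x axis, points, with bars of 1 SE) of the 17 retested genes in the Illumina, Ion Proton and WT tables. Of the 17, 14 have the same direction in WT, where Snx10, Mpp6, LOC100911302, Mfsd4 and Crim1 lie within 0.03 of 0.

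Of the 17 genes, 11 belong to a list of DG genes that the study itself had chosen on these rats, so they are no independent evidence. The list had 26 tested members, 14 higher and 12 lower, and all 26 had p under 0.05 in the Illumina table. On the Ion Proton 14 of the 26 and in WT 8 of the 26 had p under 0.05 (two-sided).

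The rat numbers fell into 2 series, below and from 9000 up, which the labels do not explain. The study states that rats of 2 test sites, each with its own supplier, were pooled, and the labels do not tie the series to the sites. There were 7 AI and 6 AU rats in the lower series and 5 AI and 6 AU in the upper, and all 3 libraries nearer to another subfield were in the upper series. Within the lower series 375 of 13946 genes (2.69%) and within the upper 983 of 14042 (7%) had p under 0.05, and 787 of 14036 (5.61%) in the upper without those 3 libraries. Ptprv had log2 changes of 0.62 and 1.01 in the lower and upper series (limma p = 0.0179 and 0.00168), and Dnah5 had 0.61 and 0.83 (limma p = 0.00941 and 0.00129). Bcl6 had -0.27 in both (limma p = 0.000749 and 0.0591). Kank4, Arhgdig and Myom2 had 0.17, 0.07 and 0.15 in the upper series without the 3 libraries (limma p = 0.196, 0.443 and 0.245). All 17 had the same sign in both series, although both had entered the choice. A test of the difference between the series passed p of 0.05 for 0 of the 17 and, after adjustment, for 0 genes in each of the 3 tables (limma). Without adjustment 533 of 14011 genes (3.8%) had p under 0.05 for this difference in the Illumina table, 264 of 15046 (1.75%) on the Ion Proton and 1691 of 13530 (12.5%) in WT, and without the 3 libraries these shares were 3.78%, 0.892% and 29.4%.

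Genes induced by interferon were followed as a list. These genes are switched on by type I interferon and include the antiviral Oas and Ifit families.

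Of 27 interferon-stimulated genes tested, 23 were lower in AI and 4 higher, with a median log2 change of -0.11, beside 7170 lower of 14011 and a median of -0.00 over all genes. With p under 0.05 there were 3, all lower (background 2.07%), which were Oas1a (log2 change -0.69, limma p = 0.0237), Usp18 (-0.51, limma p = 0.0474) and Dhx58 (-0.34, limma p = 0.0199). None was retested on the Ion Proton. Usp18, an enzyme that removes the Isg15 tag and dampens the interferon receptor, ranged from 19.3 to 38.3 in AI (median 26.8) and from 20.9 to 181 in AU (median 34.5). The AU values above the AI range included rat R1930 at 181, rat R2237 at 79.9 and rat R2185 at 51.5. Oas1a, a sensor of double-stranded RNA, reached 71.4 in AU rat R1930 and 29.4 in AU rat R2237, against 4.02 to 16.5 in AI.

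Over the whole list the median deviation from the mean of aged DG libraries was 0.86 in AU rat R1930 in the Illumina table, 1.02 on the Ion Proton and 1.00 in WT, and 0.32, 0.47 and 0.22 in AU rat R2237. In the Illumina table the other 10 AU libraries lay between -0.21 and 0.21, the AI libraries between -0.47 and 0.11 and the young between -0.49 and 0.35. Without rat R1930, 7 of 27 were higher, the median was -0.04, and 2 lower genes (Oas1a, Dhx58) and 1 higher gene (Gbp2) had p under 0.05 (background 2.69%). In the lower number series 25 of 27 were lower in AI and 11 had p under 0.05 (all lower, background 1.41%), with a median of -0.33. Without rat R1930 these numbers fell to 21 lower and 4 with p under 0.05, besides 1 higher (background 2.12%), with a median of -0.25. In the upper series 17 of 27 were higher and 0 had p under 0.05 (median 0.05, background 2.72% for lower genes), or 20 of 27 without the 3 libraries (median 0.18). There, 3 of 27 had p under 0.05 (background 5.61%), which were the antiviral genes Mx1, lower (log2 change -1.01, limma p = 0.000365) and the single one retested, and Rsad2, higher (0.67, limma p = 0.0398), with Parp14, higher (0.35, limma p = 0.0341). Over all aged libraries Mx1 had 0.02 (limma p = 0.953), and over all but the 3 it had -0.34 (limma p = 0.254). The study ranks Mx1 among the genes most underexpressed in CA1 and most overexpressed in CA3. The part of such tissue in its DG values was not tested.

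**Figure D4:**
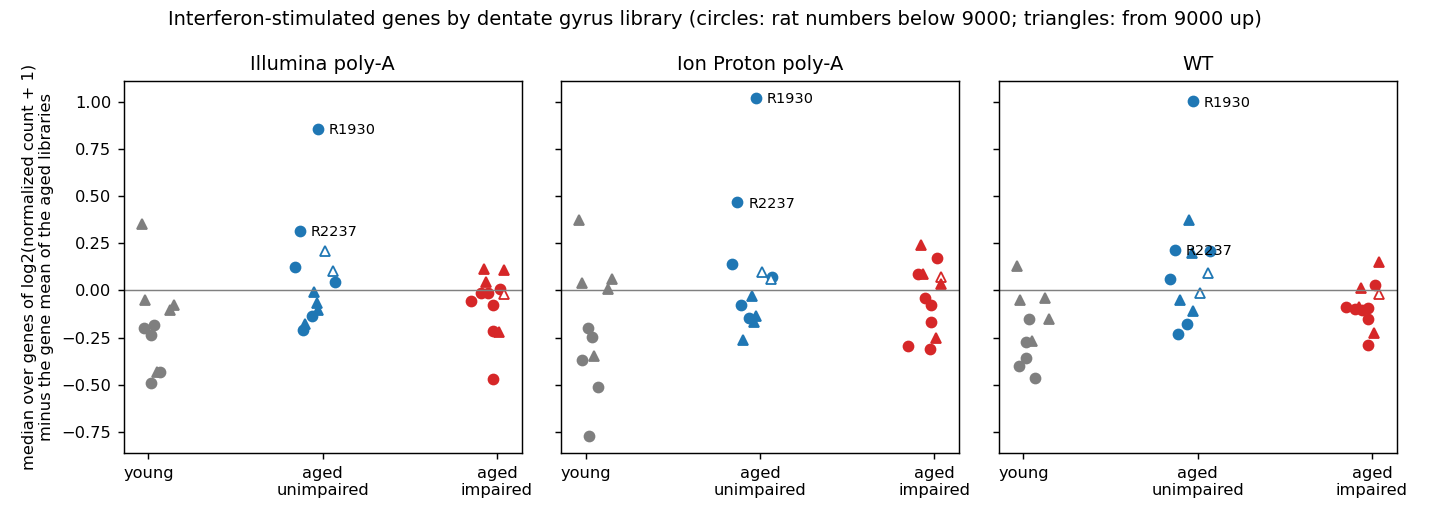
Median log2 deviation of the interferon-stimulated genes from the mean of the aged DG libraries (y axis) in young, AU and AI rats and in the Illumina, Ion Proton and WT tables, 1 point per library (circles for rat numbers below 9000, triangles from 9000 up, hollow for the 3 libraries nearer to another subfield). AU rat R1930 stands at 0.86, 1.02 and 1.00 in the 3 tables, above every other library.

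Other cell types were followed through marker lists, given here as counts and medians beside the 6841 of 14011 genes (median -0.00) that were higher overall. In a dissected piece, fewer cells of a type and less RNA per cell cannot be told apart. Granule cell markers were lower in AI for 11 of 13 (median log2 change -0.30), with 0 at p under 0.05 (1 without the 3 libraries, Ablim3, at -0.24 and limma p = 0.0366). Prox1, the factor that keeps granule cell identity, had -0.34 (limma p = 0.238). The median was -0.15 without the 3 libraries, -0.05 in the lower number series and -0.54 in the upper, or -0.27 there without the 3 libraries. CA1 markers were lower for 6 of 7 (median -0.33, or -0.10 without the 3 libraries), and CA2 and CA3 markers were higher for 6 of 10 (median 0.09). Without the 3 libraries 7 of 10 were higher (median 0.05). Nnat was the single CA2 or CA3 marker at p under 0.05 (log2 change 0.48, limma p = 0.0467, background 3.85%), but had 0.29 without the 3 libraries (limma p = 0.209). In the lower number series 6 of 10 were higher (median 0.01), and in the upper 9 of 10 (median 0.33).

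Oligodendrocyte genes such as Mbp, which encodes a protein of myelin, were higher in AI for 12 of 12, but by a median of only 0.09 (0.04 without the 3 libraries) and with 0 at p under 0.05. In WT they were higher for 4 of 12, with a median of -0.02 and 0 at p under 0.05. They were lower for 12 of 12 in the lower number series (median -0.06) and higher for 12 of 12 in the upper (median 0.49), where 11 had p under 0.05 (background 4.28% for higher genes), and 5 without the 3 libraries (median 0.33, background 3.65%). Ependymal genes of motile cilia followed the same split. They were higher for 7 of 8 overall (median 0.14, 0 at p under 0.05), for 4 of 8 when the 3 libraries were left out (median 0.03, 0 at p under 0.05), for 1 of 5 tested in the lower series (median -0.14) and for 8 of 8 in the upper (median 1.06), where 7 had p under 0.05, or 4 without the 3 libraries (median 0.62). The summed ependymal level ranged from 164 to 661 in AI and from 192 to 420 in AU. Dnah5 is expressed in such cells, and the part of their share in its change was not tested.

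Endothelial genes were higher for 12 of 12 (median 0.11, 0 at p under 0.05), and without the 3 libraries 3 of 12 had p under 0.05 (Cdh5, Flt1 and Abcb1a, median 0.25, background 2.95%). Leptomeningeal genes were higher for 9 of 10 (median 0.21), and pericyte genes for 5 of 7 (median 0.04), each with 0 at p under 0.05. Leaving out the 3 libraries raised these numbers to 10 of 10 (median 0.36) and 7 of 7 (median 0.18), still with 0 at p under 0.05. Without AU rat R1930 they were higher for 8 of 10 (median 0.05) and 2 of 7 (median -0.02), endothelial genes for 11 of 12 (median 0.07), and leptomeningeal genes on the Ion Proton for 5 of 10. MHC class II genes, through which immune cells present peptides, were higher for 5 of 5 by a median of 0.50 (0.26 without the 3 libraries), with 0 at p under 0.05. In the lower number series their median was 0.41, with 0 at p under 0.05. In the upper it was 0.87, with 2 of 5 at p under 0.05 (background 4.28% for higher genes). In WT 1 of 5 had p under 0.05 over all aged rats (background 7.09%). Cd74, the invariant chain of this complex, had medians of 399 in AI, 186 in AU and 90.4 in young rats. Its log2 change in AI was 0.44 (SE 0.40, limma p = 0.276), or 0.22 without the 3 libraries, and the ranges overlapped (95.0 to 948 in AI and 115 to 888 in AU). In the upper number series the log2 change of Cd74 was 0.87 (limma p = 0.0477), or 0.23 there without the 3 libraries (limma p = 0.353).

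Microglial genes were higher for 16 of 18 by a median of 0.05 (10 of 18 without the 3 libraries), complement genes for 12 of 15 by 0.04 and astrocyte genes for 6 of 12 by 0.00, all with 0 at p under 0.05. Oligodendrocyte precursor genes were higher for 8 of 9 (median 0.10), interneuron genes for 7 of 11 (0.06), mossy cell genes for 4 of 5 (0.16) and blood genes for 6 of 6 (0.12), again with 0 at p under 0.05. So were choroid plexus genes for 4 of 4 (0.27), thalamic and habenular genes for 6 of 7 (0.22), striatal genes for 4 of 7 (0.18) and subicular genes for 2 of 6 (-0.14). Once the 3 libraries were left out, the medians were 0.25 for blood, 0.49 for the 3 choroid plexus genes still tested, 0.26 for thalamic and habenular, 0.25 for striatal (6 of 7 higher) and -0.07 for subicular genes (3 of 6 higher). Among these lists Adora2a, an adenosine receptor of striatal neurons, was then the single gene with p under 0.05 (log2 change 0.58, limma p = 0.0376, background 2.95%). Genes of newborn neurons and dividing cells were higher for 7 of 11 (median 0.19), with Dpysl3, which guides growing axons, past p of 0.05 (log2 change 0.19, limma p = 0.014), which is 1 of 11 beside a background of 3.85%.

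Synaptic and activity genes were followed through further lists. Of 20 activity-dependent early genes such as Fos and Arc, 7 were higher and 1 had p under 0.05, the nuclear receptor Nr4a3 (log2 change 0.22, limma p = 0.011). Of 22 glutamate receptor genes 5 were higher, with the kainate receptor Grik4 past p of 0.05 (0.29, limma p = 0.033), and of 12 GABA-A receptor subunits 3 were higher, with Gabra5 past it (0.23, limma p = 0.039), beside a background of 3.85%. Both calls were lost when the 3 libraries were left out, with 0.13 for Grik4 (limma p = 0.141) and 0.11 for Gabra5 (limma p = 0.149). Then 9 of 22 glutamate receptor genes and 7 of 13 GABA-A subunits were higher, with 0 at p under 0.05 in either list. In WT 4 of 22 glutamate receptor genes (3 lower) and 4 of 12 GABA-A subunits (all lower) had p under 0.05, beside 7.09% of all genes. Calcium channels, stores and buffers were higher for 17 of 34 (1 at p under 0.05), neurotrophins and their receptors for 4 of 8 (0), neuropeptides for 6 of 12 (0) and nectins, cadherins and protocadherins for 15 of 29 (1). A list of calcium and synaptic genes that the study had chosen for CA1 on these rats was higher in DG for 20 of 28, with 5 at p under 0.05 (background 3.85%). When the 3 libraries were left out, 14 of 28 were higher and 1 had p under 0.05 (background 2.95%).

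Housekeeping groups differed between tables and sets of libraries. Nuclear genes of the respiratory chain were higher for 53 of 71 (median 0.02) but for 24 of 71 without the 3 libraries (median -0.01), and for 27 of 69 in WT (median -0.03) and 64 of 75 on the Ion Proton (0.09). Ribosomal protein genes were higher for 23 of 74 and, without the 3 libraries, 11 of 74 (medians -0.02 and -0.03), but on the Ion Proton for 72 of 93 and 64 of 93 (both medians 0.07). Collagen and cross-linking genes were higher for 17 of 24 (median 0.08), with 2 at p under 0.05 (background 3.85%), but on the Ion Proton for 8 of 24 (median -0.09), with 0 at p under 0.05. In WT 19 of 23 were higher (median 0.26), with 4 at p under 0.05 (background 7.09%). Loxl2, an enzyme that cross-links collagen, was lower (log2 change -0.51, SE 0.16, limma p = 0.00314), but did not pass the retest (one-sided Ion Proton limma p = 0.141). Its relative Loxl1 was higher (0.35, limma p = 0.0115) and missed the cut of 0.01, so it was not put to the retest. On the Ion Proton Loxl1 had 0.44 (two-sided limma p = 0.0599) and in WT 0.53 (two-sided limma p = 0.0280).

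Prolactin (Prl), a hormone made by the pituitary, lay below the level needed for the main test and is described by sample. In 5 of 12 AI rats the DG library held more than 3 reads, with 59.0 normalized counts in rat R2233, 33.5 in rat R2231, 23.0 in rat R2235, 18.2 in rat R2238 and 15.6 in rat R9781. The other 7 AI libraries lay at the floor, 5 of them at 0, and AU libraries lay between 0 and 4.20 (median 0.76), with 1 of 12 over 3 reads. Young libraries reached 0.31. The AI median of 1.16 was thus close to that of AU, and the difference came from single rats. All of the 5 but R9781 had numbers below 9000, and the DG library of R9781 lay nearest to CA3.

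The same 5 AI rats held the high values in the other subfields. Their levels were 22.9 to 121 in CA1 and 22.4 to 374 in CA3, with the highest value in the CA3 library of rat R2233. More than 3 reads in all 3 subfields were found in 5 of 12 AI, 0 of 12 AU and 0 of 10 young rats in the Illumina table, in 4, 0 and 0 on the Ion Proton and in 5, 0 and 0 in WT. Growth hormone (Gh1), made by other pituitary cells, was 22.8 in rat R2233, 12.1 in rat R2231, 6.12 in rat R2235, 6.08 in rat R2238 and 2.23 in rat R9781, and 0 in 10 of 12 AU and in all young libraries. Cga, the shared chain of other pituitary hormones, was at 0 in 10 of 12 AI and 8 of 12 AU libraries. Pomc, which is also made in the brain, had medians of 16.4 in AI and 13.4 in AU (log2 change 0.23, limma p = 0.387). It was higher in AI on the Ion Proton (0.81, limma p = 0.0263), in WT (0.61, limma p = 0.0394) and in the lower number series of the Illumina table (0.63, limma p = 0.0488), without adjustment, but had -0.34 in the upper series (limma p = 0.349). The part of pituitary RNA in the Prl values was not tested.

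With no filter on low values limma gave Prl a log2 change of 1.38 (SE 0.68, p = 0.0523, adjusted p = 0.967), 1.41 on the Ion Proton (p = 0.0335) and 1.03 in WT (p = 0.122). These values depend on the pseudocount, since AU lay near the floor, and no fold is given.

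**Figure D5:**
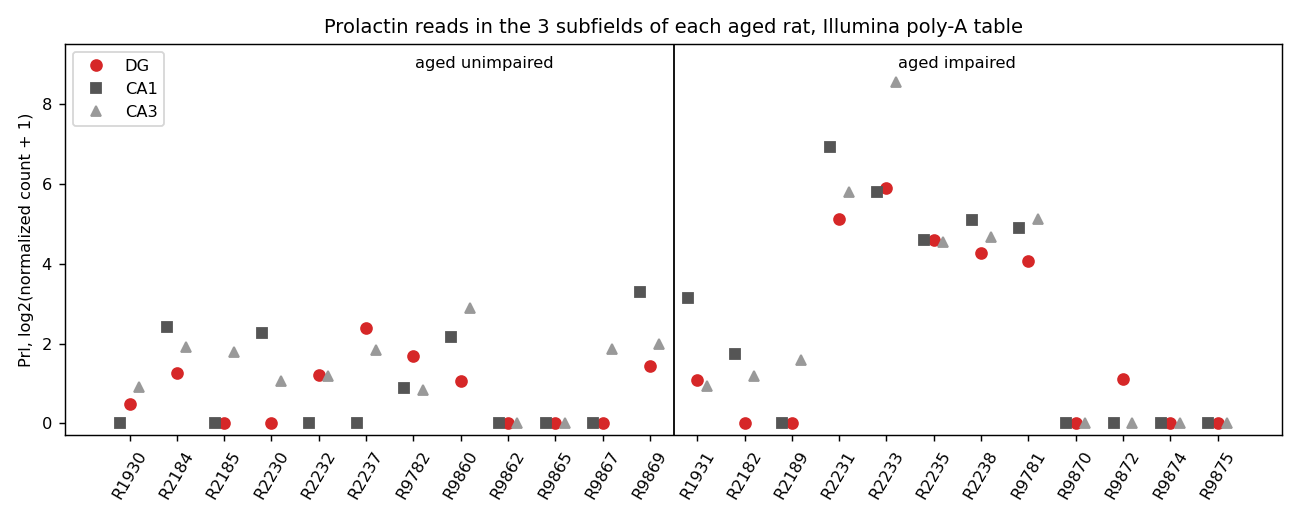
Prl as log2(normalized count + 1) (y axis) in DG, CA1 and CA3 of the 24 aged rats of the Illumina table (x axis), AI and AU. The 5 AI rats R2231, R2233, R2235, R2238 and R9781 are high in all 3 subfields, and every library of the other aged rats lies below all of theirs.

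Whether these differences set the DG apart from CA1 and CA3 was tested as the difference of the AI effects. After adjustment 0 of 14186 genes passed against CA1 and 0 against CA3 with limma, with 494 (3.48%) and 261 (1.84%) at an unadjusted p under 0.05 (542, 3.82%, and 260, 1.83%, with edgeR, also 0 adjusted). Of the 17 retested genes, 7 and 5 had p under 0.05, but they had been chosen for their change in DG, which enters this contrast, so these counts are a description. In CA1 the log2 change of Ptprv was -0.51 (limma p = 0.0376), that of Kcnq5 -0.45 (limma p = 0.0136), that of Kank4 -0.38 (limma p = 0.0333) and that of Myom2 -0.36 (limma p = 0.0277), all opposite to DG. The difference between DG and CA1 was 1.34 for Ptprv (limma p = 0.000372), or 0.99 without the libraries nearer to another subfield (limma p = 0.00288), and 0.80 for Kcnq5 (limma p = 0.0173), or 0.62 (limma p = 0.061). Gjd2 had a difference of 0.66 (limma p = 0.0511). In CA1, 5 of the 17 had p under 0.05, and 5 of the 17 had the direction seen in DG. In CA3 none of the 17 had p under 0.05, and 10 had the direction seen in DG.

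Against CA3, Dnah5, Cndp2, Mccc2, Rapgef5 and Bcl6 differed from DG at p under 0.05 (limma p = 0.0178, 0.0421, 0.0343, 0.0371 and 0.0225). For scale, 208 of 14205 genes (1.46%) had p under 0.01 between AI and AU within CA1 and 23 of 14232 (0.162%) within CA3, with 0 after adjustment in either. The DG, with 70 (0.5%), lay between them, but the difference between these counts was not tested.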

How the data were processed

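RNA was measured in CA1, CA3 and DG of 34 male rats, each rat giving 1 library per subfield and table. The deposited values were size-factor normalized signals: the authors divided gene counts by a DESeq2 size factor per library. The submitters' processing notes name bcl2fastq 2.17, cutadapt 1.8.3, STAR 2.5, featureCounts 1.4.4, DESeq2 1.16.1 and rn5 (the study's methods give another DESeq2 version). Per the study's methods, Ion Proton reads were aligned with TopHat2 and Bowtie2. For the WT table the library type and aligner are not given in the sources used here. Labels and methods name different TruSeq kits, so strand use is uncertain, and reads of overlapping or antisense genes cannot be told apart. Whole reads were recovered for 100% of values (within 0.001 read). Tables were normalized separately and tested separately. The Ion Proton table lists all mitochondrial genes at 0. Every column matched 1 sample.

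Rats were grouped by their labels, and replicates were separate rats. The main test was limma 3.58.1 in R 4.3.3, with a variance trend, on log2(value + 1) of each gene whose mean over the libraries fitted was 10 or more. This scale understates changes of low genes. Retested genes had p under 0.01 in the Illumina table and a one-sided p under 0.05 in the same direction on the Ion Proton. Alternatives used edgeR 4.0.16, DESeq2 1.42.0, other scaling, filters, covariates and sets of rats. Scripts were tested on simulated data. Rat numbers pair the subfields, since the same animal gave all 3; deviations of DG and CA1 libraries of 1 rat correlated with a median of 0.17 (over 0.1 in 18 of 24), and those of DG and CA3 with -0.04 (6 of 24). The groups compared within DG hold different rats.

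The genes to be named were the retested genes (up to 12 in each direction), Prl and any gene past adjustment. Other list members were named after their values were seen. The comparison, the lists and the tests were chosen with earlier results of these data known.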

Additional observations from a re-analysis of the deposited data

How the results depend on the processing

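No gene passed adjustment under any alternative, and leaving out each of the 24 libraries in turn gave 0 to 0 adjusted calls. Genes with p under 0.01 numbered 70, and 117 without the filter, 137 with library weights, 177 with the rat number series as covariate, 36 in the series below 9000, 193 from 9000 up, 46 without the 3 libraries nearer to another subfield, 27 with the Ion Proton and 123 with the WT table as source; leaving out each library gave 46 to 136. Retested genes numbered 17, and 28 with edgeR, 33 with DESeq2, 43 with weights, 67 with the series covariate, 5 below 9000, 111 from 9000 up, 29 from 9000 up without the 3 libraries and 11 without them; leaving out each library gave 9 (AI rat R2238) to 51 (AI rat R1931), with 40 without AU rat R2232. Those past the WT table numbered 9, and 35 with the series covariate and 5 without the 3 libraries. The cause of these moves was not tested beyond the fewer rats in the subsets. Of the 17, all were retested under the series covariate, 16 under edgeR, 16 under DESeq2, 12 under weights, 6 without the 3 libraries (Ptprv, Dnah5, Mpp6, Mccc2, Rapgef5 and Bcl6), 3 below 9000, 4 from 9000 up and 0 from 9000 up without the 3 libraries. Ptprv, Dnah5, Gjd2, Kcnq5, Mtss1, Rapgef5 and Bcl6 were retested in every fit that left out 1 library. In the 697 single-gene refits of the 17, none changed direction and 179 missed p of 0.01. With the rat as replicate block, 0 genes passed adjustment for a DG effect that differed from CA1 or from CA3, with 575 (4.05%) and 453 (3.19%) at p under 0.05, and no other call changed. Depth limits Prl and Gh1, whose AU levels lie at the floor. Alternatives with the number series or edgeR and without the 3 libraries, and those without AU rat R1930, were chosen after seeing the data.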
